A study of Sus scrofa with 4 samples.

Results

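Interferon regulatory factors (IRFs), guanylate binding proteins (GBPs) and the RNA sensor IFIH1 were examined in the thymus of IL2RG KO and wildtype (WT) pigs. The genes were IRF1, IRF3, IRF7, IFIH1, GBP1 and GBP2, and every probe of the array whose RefSeq accession belongs to one of them was taken. These were 6 of the 3020 genes that could be named on the array, with 12 probes in all, and all 12 probes passed the filter on dim signals. GBP1 had 3 probes, IRF7 had 1 probe, and each of the other genes had 2.

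The KO arrays held thymus RNA of Minnesota miniature swine labelled IL2RG+/-, in which a TALEN had cut 1 copy of the gene for the gamma chain shared by several interleukin receptors, and the WT arrays held thymus RNA of wildtype swine of the same breed. There were 2 arrays per genotype, with 1 sample and only the dye Cy3 on each. The KO animals were cloned by nuclear transfer from edited cell colonies, and the arrayed ones were those with a rudimentary thymus, so the KO tissue was small and atrophied. The labels give no treatment, sex or age of these animals. They call the arrays independent experiments without saying whether each was a separate animal, so the p-values measure the spread between these samples only.

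Each slide carried 1 array of each genotype, slide 1 those of KO replicate 1 and WT replicate 2 and slide 2 the others. Between 67.9% and 74.5% of the probes of an array were well above background, no spot was saturated, and the number of arrays limits the precision. Both probes of IL2RG itself were lower in KO, with log2 fold changes of -3.41 and -4.38 (limma adjusted p = 0.00256 and 0.00208). Among lists of markers, all 12 thymocyte genes and all 9 proliferation genes tested fell, their medians being -3.16 and -2.48 on the log2 scale, while 9 of 10 macrophage, 4 of 4 endothelial, 4 of 4 fibroblast, 3 of 4 NK and cytotoxic, 2 of 3 epithelial and 1 of 2 dendritic cell genes were called higher. Of 4 B cell genes, 3 were called lower and 1 higher. For comparison, 25.2% of the 2702 named genes tested were called higher and 12.6% lower. In whole tissue, fewer cells of a type and less RNA per cell cannot be told apart.

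Interferons are secreted proteins that put cells into an antiviral and antigen-presenting state. Foreign RNA in the cytoplasm is bound by IFIH1 (also called MDA5), which signals through MAVS and TBK1 to IRF3 and IRF7, the factors that switch on type I interferon genes. IRF1 is a transcription factor that is itself switched on by IFN-gamma, and the GBPs are large GTPases made in response to IFN-gamma that attack intracellular pathogens. IRF3 is known as a protein that is kept in the cytoplasm until it is phosphorylated, and unlike IRF1 and IRF7 its gene is not a typical interferon target. In the thymus, IRF1 is known to be needed for the development of CD8 T cells.

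The values below are log2 signals from which the 75th percentile of the array was subtracted, so that 0 is the level of a probe at that percentile. A probe was called higher or lower at a Benjamini-Hochberg adjusted p under 0.05 in limma, over all 31959 tested probes, with a fold change of at least 2. Of the 12 probes, 9 were called higher in KO and 0 lower, against 21.0% and 13.0% of all tested probes. At an unadjusted p under 0.05, 10 probes were higher and 2 were lower. That cut has no fold limit, and the share of all tested probes that passes it was not taken. The 21.0% and 13.0% are therefore no comparison for it. Both KO arrays lay above both WT arrays for 10 of the 12 probes, which was true of 37.7% of all tested probes. Taking each gene by its brightest probe, 4 of the 6 genes were called higher, against 25.2% of the 2702 named genes, and none lower, against 12.6%. These were IRF1, IFIH1, GBP1 and GBP2. The median log2 fold change was 1.52 over the 12 probes and -0.06 over all tested probes.

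**Figure D1:**
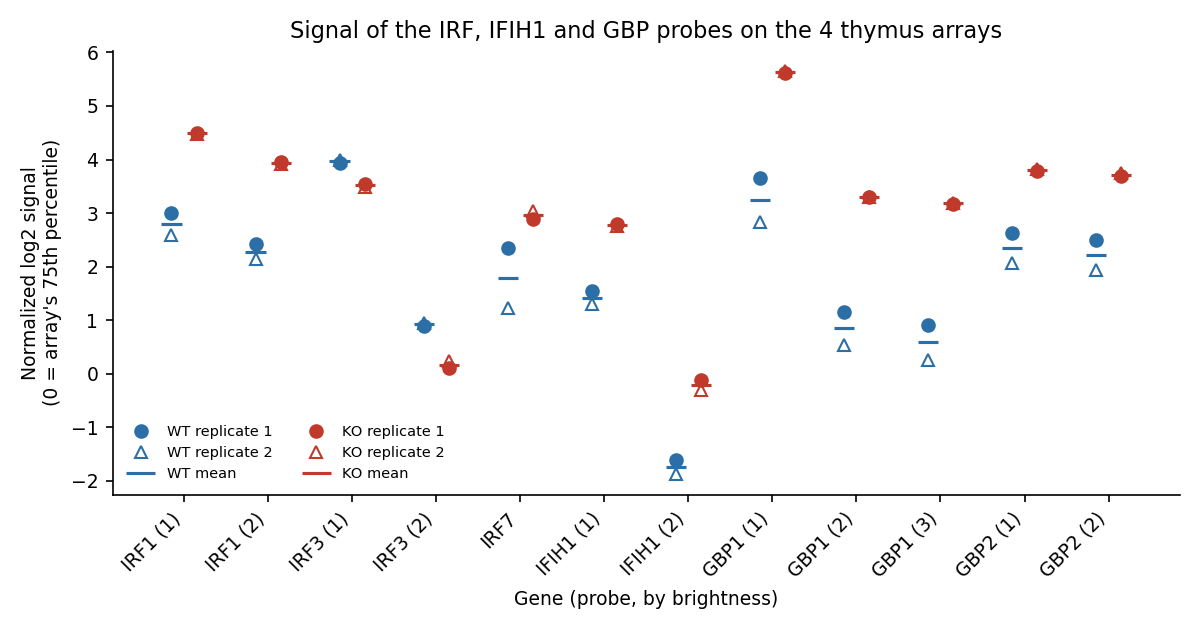
Normalized log2 signal (vertical axis, 0 being the array's 75th percentile) of the 12 probes of IRF1, IRF3, IRF7, IFIH1, GBP1 and GBP2 (horizontal axis, probes of a gene numbered by brightness) on 2 WT arrays (blue) and 2 KO arrays (red). Symbols are single arrays and bars are the means of a genotype. The KO arrays lie above the WT arrays for every probe except those of IRF3, and the WT arrays lie farther apart than the KO arrays for most probes.

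IRF1, the factor downstream of IFN-gamma, rose on both of its probes. Its brighter probe, A_72_P177721, read 4.50 and 4.48 on the KO arrays and 2.99 and 2.59 on the WT arrays. The KO arrays were thus nearly equal and both stood well above the WT arrays. The change was 3.25-fold (log2 fold change 1.70, SE 0.20, adjusted p = 0.00532 in the limma fit over 2 arrays per genotype). The second probe, A_72_P536281, read 3.95 and 3.92 on the KO arrays and 2.42 and 2.14 on the WT arrays, and its change of 1.65 (SE 0.18, adjusted p = 0.0043) differed from that of the first by 0.05. Within slide 1 the brighter probe was higher in KO by 1.91, and within slide 2 by 1.49.

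IRF3, the factor activated downstream of RNA and DNA sensors, was the gene among the 6 that lay below WT. Its brighter probe, A_72_P442884, read 3.55 and 3.49 on the KO arrays and 3.94 and 3.99 on the WT arrays. The groups did not overlap, but the change was small (log2 fold change -0.45, SE 0.15, 95% interval -0.85 to -0.04) and did not pass the test (adjusted p = 0.0707). The second probe, A_72_P165194, read 0.10 and 0.24 on the KO arrays and 0.90 and 0.94 on the WT arrays. Its difference of -0.75 (SE 0.16) had an adjusted p of 0.0204 but was under 2-fold, so it was not called. Scaling the arrays to the median in place of the 75th percentile moved this probe to -1.01 (adjusted p = 0.00953), where it was called lower, and moved the median of all tested probes to -0.32. IRF3 was also the gene with the closest WT arrays, which differed by 0.06 and 0.05 on its probes.

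IRF7, the amplifier of the type I interferon response, had higher values on the KO arrays but was not called. Its only probe, A_72_P077861, read 2.89 and 3.04 on the KO arrays and 2.35 and 1.23 on the WT arrays. Both KO arrays were above both WT arrays, but WT replicate 1 lay 1.12 above WT replicate 2, the widest gap of any of the 12 probes. The difference was 1.17 (SE 0.41, 95% interval 0.08 to 2.27, adjusted p = 0.0747). It was 1.66 within slide 1 and 0.69 within slide 2. Without WT replicate 1 it was 1.73 and was called higher (adjusted p = 0.00316), and without WT replicate 2 it was 0.61, which is under 2-fold. With all 4 arrays it was also called in the deposited log2 table (1.28, adjusted p = 0.0487) and in limma with an intensity trend (1.17, adjusted p = 0.0494). It was not called after quantile scaling (1.28, limma adjusted p = 0.0568), median scaling or normexp correction. The call of IRF7 thus changed with the WT array left out, and with all 4 arrays it depended on small shifts of the adjusted p.

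IFIH1, the cytoplasmic receptor for long double-stranded RNA, rose on both probes. The brighter one, A_72_P088691, read 2.79 and 2.76 on the KO arrays and 1.54 and 1.30 on the WT arrays, a change of 2.55-fold (log2 fold change 1.35, SE 0.17, adjusted p = 0.00607). The second, A_72_P066761, was dimmer, at -0.11 and -0.30 on the KO arrays and -1.62 and -1.88 on the WT arrays. Its change of 1.54 (SE 0.18, adjusted p = 0.00548) was of a like size, and neither probe overlapped between the genotypes. The call of the brighter probe was lost when either KO array was left out (adjusted p = 0.0551 without KO replicate 1 and 0.054 without KO replicate 2), while its change remained 1.34 and 1.37.

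GBP1 had the largest change of the 6 genes. Its brightest probe, A_72_P648637, read 5.62 and 5.65 on the KO arrays and 3.66 and 2.83 on the WT arrays. In raw signal this was 37428.8 and 35020.3 against 7845.92 and 4944.5, and no KO value came near a WT value. The change was 5.24-fold (log2 fold change 2.39, SE 0.32, 95% interval 1.54 to 3.24, adjusted p = 0.00675). The other probes of GBP1, A_72_P296689 and A_72_P541958, rose by 2.46 (adjusted p = 0.00421) and 2.59 (adjusted p = 0.00387), so the 3 probes spanned 0.20 on the log2 scale. Of all tested probes, between 6.33% and 7.93% had a larger rise than these 3.

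GBP2 lies next to GBP1 in the RefSeq gene table of the pig assembly Sscrofa11.1, with 0 genes listed between them. Its brighter probe, A_72_P532613, read 3.79 and 3.81 on the KO arrays and 2.64 and 2.06 on the WT arrays, a change of 2.74-fold (log2 fold change 1.46, SE 0.24, adjusted p = 0.0118). The second probe, A_72_P293034, changed by 1.5 (SE 0.24, adjusted p = 0.0103). Both probes lost their call when either KO array was left out, with adjusted p-values between 0.0586 and 0.0715. GBP1 and GBP2 are related in sequence, and whether a probe of one also binds RNA of the other was not tested.

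**Figure D2:**
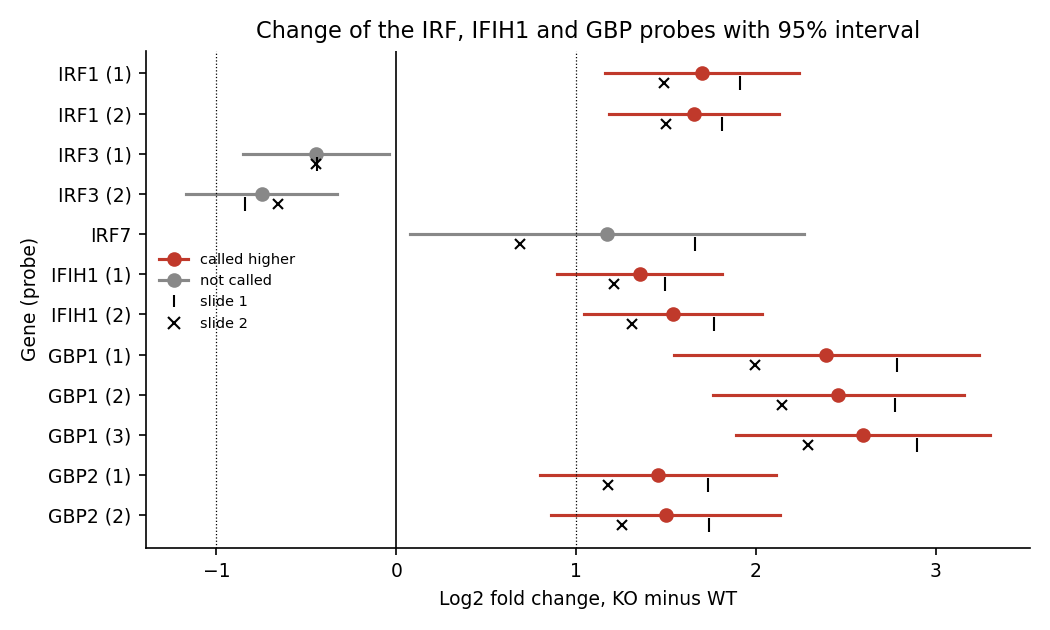
Log2 fold change of KO against WT (horizontal axis) for each of the 12 probes (vertical axis), with the 95% interval of the limma fit over 2 arrays per genotype. Red probes were called higher and grey ones were not called, ticks and crosses are the KO minus WT difference within slide 1 and slide 2, and dotted lines mark 2-fold. The 3 probes of GBP1 lie farthest to the right, between 2.39 and 2.59, and those of IRF3 lie left of 0.

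The changes of the 6 genes, taken by their brightest probes, were set against each other in 15 pairs. For each pair the difference of the normalized values was taken on every array. With 2 arrays per genotype the smallest p that an exact two-sided permutation test can give is 0.333, so none of these pairs could pass a threshold of 0.05, before or after adjustment. The rise of GBP1 exceeded that of GBP2 by 0.94, with 1.05 within slide 1 and 0.82 within slide 2. IRF1 and IRF3 moved apart by 2.15, with 2.35 and 1.94 within the slides. The changes of IRF7 and IFIH1, of IRF7 and GBP2, and of IFIH1 and GBP2 differed by -0.18, -0.28 and -0.10, and these differences overlapped between the genotypes on the arrays.

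The WT arrays lay farther apart than the KO arrays for the 10 probes of IRF1, IRF7, IFIH1, GBP1 and GBP2, but not for those of IRF3. The KO arrays were 0.003 to 0.19 apart over the 12 probes, and the WT arrays 0.05 to 1.12. Over all tested probes the median gap was also wider in WT, at 0.30 against 0.16 in KO. WT replicate 1 was above WT replicate 2 for 10 of the 12 probes, all but those of IRF3, with a median difference of 0.47. Over all 31959 tested probes WT replicate 1 was the higher in 49.7%, with a median of -0.00, and over the 6713 probes called higher in KO it was the higher in 80.6%, with a median of 0.44. The same order of the WT arrays was seen for 43 of the 56 tested genes of the interferon lists described next. Among marker lists it held for 8 of 10 macrophage, 4 of 4 endothelial, 3 of 4 fibroblast and 2 of 3 epithelial genes. It held for 3 of 4 B cell, 2 of 4 NK and cytotoxic and 1 of 2 dendritic cell genes. It held for 2 of 9 proliferation and 0 of 12 thymocyte genes, and for 22.9% of the 4169 probes called lower in KO. The mean log2 level of the macrophage list was 3.67 and 3.98 on the KO arrays and 2.04 and 1.57 on the WT arrays, and that of the thymocyte list was -0.26 and -0.73 against 3.47 and 3.99. No macrophage or thymocyte marker was below background on both arrays of a genotype. The part of cell composition in the changes of the 6 genes was not tested.

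The genes around these 6 in the interferon pathway were taken from 6 lists, of which 58 of 114 listed genes were on the array under a known name and 56 were tested. By their brightest probes, 27 of the 56 were called higher in KO, 0 lower and 29 were not called, beside 25.2% of all named genes higher and 12.6% lower. At an unadjusted p under 0.05, 35 of the 56 were higher and 3 were lower, namely JAK1, TRAF6 and DDX3X. The share of all named genes that passes this unadjusted cut, which has no fold limit, was not taken. The 25.2% and 12.6% are therefore no comparison for these unadjusted counts. The differences between the lists were not tested.

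**Figure D3:**
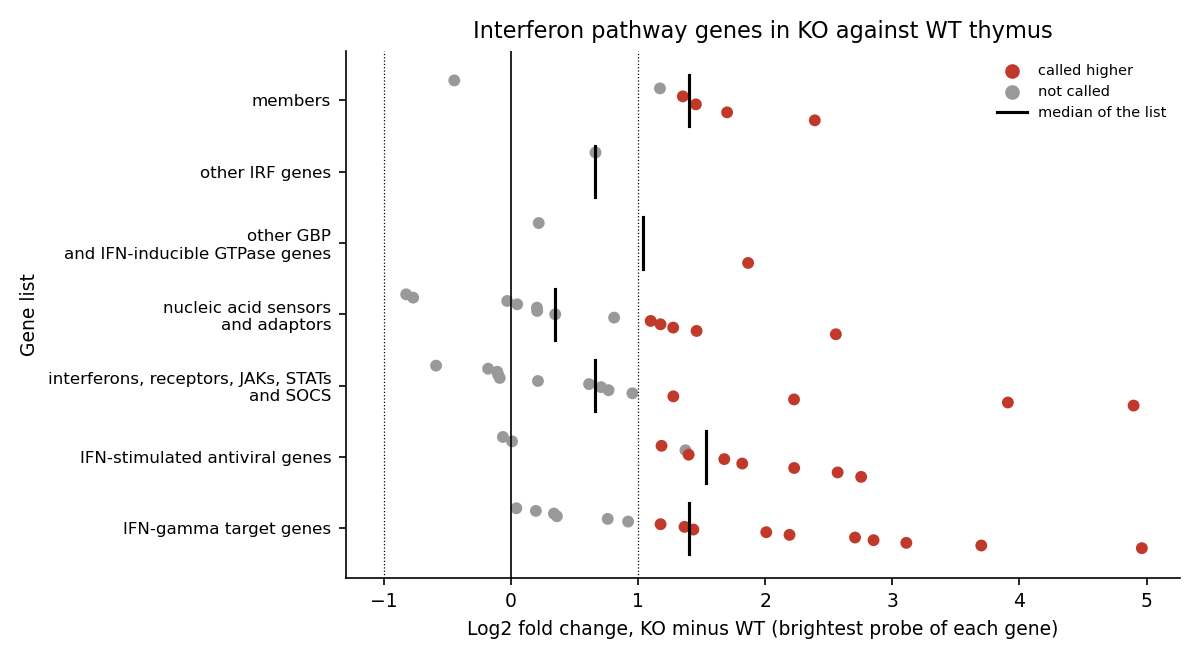
Log2 fold change of KO against WT (horizontal axis) of the brightest probe of each gene, for IRF1, IRF3, IRF7, IFIH1, GBP1 and GBP2 (top row, members) and for 6 lists of interferon pathway genes (vertical axis). Red genes were called higher, grey ones were not called, the black bar is the median of the list and dotted lines mark 2-fold. Called genes occur in 5 of the 6 lists, and the median is lowest for the nucleic acid sensors and adaptors, at 0.35.

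Of the other IRF genes, IRF9 was measured. IRF9, the DNA-binding subunit of the complex that answers type I interferons, had a change of 0.66 (SE 0.19, adjusted p = 0.0479), under 2-fold and not called. Of the other interferon-inducible GTPases, MX2 rose by 1.87 (SE 0.50, adjusted p = 0.0393), a call that was lost under 7 of 16 alternatives, among them the slide block and leaving out either KO array. MX1, an antiviral GTPase that is among the best known interferon targets, read 7.0 and 7.06 on the KO arrays and 7.21 and 6.41 on the WT arrays. Its arrays overlapped between the genotypes, none of its 5 probes was called, and its difference was 0.22 (adjusted p = 0.593).

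Among 13 nucleic acid sensors and adaptors, 5 were called higher and 8 were not called. Some of the 5 calls were lost when either KO array or WT replicate 2 was left out. Of all named genes 25.2% were called higher, so the list is not set apart by these counts. TLR3, the endosomal receptor for double-stranded RNA, rose most, by 5.88-fold (log2 fold change 2.56, SE 0.32, adjusted p = 0.00581). TBK1, the kinase that phosphorylates IRF3, rose by 1.46 (SE 0.17, adjusted p = 0.00482). TLR8, a receptor for single-stranded RNA, rose by 1.28, ZBP1, a sensor of Z-form nucleic acid, by 1.18 on 1 of its 2 probes, and TLR9, a receptor for DNA, by 1.1. DHX58, the relative of IFIH1 that modulates its signalling, had overlapping arrays and a difference of -0.03 (SE 0.36, adjusted p = 0.954). MAVS, the adaptor through which IFIH1 signals, was at 0.05 (adjusted p = 0.831), and TMEM173, the STING adaptor of DNA sensing, at 0.21 (adjusted p = 0.575). EIF2AK2, MYD88 and TLR7 were at 0.81, 0.21 and 0.35 and were not called. TRAF6 and DDX3X were at -0.82 and -0.77, under 2-fold, and were called lower when arrays were scaled to the median (-1.08 and -1.03), a scaling under which TLR9 and ZBP1 were no longer called.

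Among 14 interferons, receptors, JAKs, STATs and SOCS genes, 4 were called higher, which is near the 25.2% of all named genes. With only probes well above background on all 4 arrays, IFNE left the list and 3 genes were called. In that setting 4760 of 27970 tested probes were called higher. IFNG, the gene of IFN-gamma, read -1.5 and -1.43 on the KO arrays and -5.37 and -5.38 on the WT arrays. Its log2 fold change was 3.91 (SE 0.15, adjusted p = 0.00205), and 1.69 where the background was corrected by normexp. The WT values of IFNG lay close to the dimmest signals well above background on the WT arrays, -5.72 and -5.92, so the size of its change is uncertain. The receptor subunits IFNGR2 and IL10RB rose by 2.23 and 1.28, the call of IL10RB being lost under 6 of 16 alternatives, among them leaving out either KO array or WT replicate 2, while IFNGR1 was at 0.77 and not called. IFNE, a type I interferon known from the reproductive tract, was not well above background on either WT array. Its measured means were -2.89 in KO and -7.79 in WT. Against the dimmest signals well above background on the WT arrays its KO mean was 7.61-fold higher, a value that depends on this floor. IFNE entered the fit only through its KO signal, so its call is no test. After normexp correction its log2 fold change was 0.98, under 2-fold, and it was not called, so the size of its change is uncertain. IFNA1, the type I interferon measured beside it, was at 0.21 (adjusted p = 0.322). Its WT values of -5.20 and -5.36 also lay close to the dimmest signals well above background on the WT arrays. The type I receptor genes IFNAR1 and IFNAR2 were at -0.18 and -0.10, and JAK1, the kinase that serves both kinds of receptor, was the lowest of the list at -0.59 (adjusted p = 0.042, under 2-fold). STAT2 was at 0.96 (adjusted p = 0.0109), just under 2-fold.

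Among 10 interferon-stimulated antiviral genes, 7 were called higher, with a median log2 fold change of 1.54, beside 25.2% of all named genes and their median of -0.00. OASL and RSAD2, effectors against RNA viruses, rose most, by 2.76 (SE 0.59, adjusted p = 0.0217) and 2.57 (SE 0.64, adjusted p = 0.0327). IFI44 and TRIM21, the Fc receptor of the cytoplasm, were at the other end, at 0.01 and -0.06, with arrays that overlapped between the genotypes. The WT arrays were 0.95 apart in the median for this list, and most of the 7 calls were lost when either KO array was left out. Among 16 IFN-gamma target genes, 10 were called higher, with a median of 1.40, beside the same 25.2%. The chemokines CXCL9 and CXCL10 led, at 31.2-fold (log2 fold change 4.96, SE 0.33, adjusted p = 0.00214) and 13.0-fold (3.70, SE 0.23, adjusted p = 0.00209). PSME1, a proteasome activator subunit, and NOS2, the inducible nitric oxide synthase, were lowest, at 0.20 and 0.04. Some of the 10 calls were lost when either KO array was left out. Fewer of all tested probes were called then too, so the 25.2% is no comparison for fits without a KO array.

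Genes with a profile like that of each of the 6 were looked for among 2508 named genes, by the root mean square distance between mean-centred log2 values over the 4 arrays. With so few arrays the measure reflects mainly the size of the change and the gap between the WT arrays. The nearest genes were SPI1 (distance 0.02) and RBM47 (0.04) for IRF1, and GDF9 and API5 (both 0.02) for IRF3. They were HP and HHEX (both 0.08) for IRF7, the gene with the farthest nearest neighbours, and JUP and LACTB2 (both 0.04) for IFIH1. They were EGF (0.02) and KRT8 (0.04) for GBP1, and GPR4 (0.02) and LMNA (0.05) for GBP2. SPI1 encodes a transcription factor of the myeloid lineage and KRT8 a keratin of simple epithelia. Among the 6 genes themselves, IFIH1 and GBP2 lay closest at 0.13, IRF1 and GBP2 next at 0.14, and IRF3 and GBP1 farthest apart at 1.45.

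The direction of all 12 probes was kept under the 16 alternatives of scaling, background correction, filter, test and left-out array. The change of the brightest GBP1 probe ranged from 1.98 to 2.80, that of IRF1 from 1.44 to 1.90, that of IFIH1 from 1.09 to 1.47, that of GBP2 from 1.17 to 1.74, that of IRF7 from 0.61 to 1.73 and that of IRF3 from -0.70 to -0.27. GBP1 and IRF1 were called in each alternative except the methods' own test, an unpaired one run probe by probe, with either adjustment. With Bonferroni adjustment that test called 0 probes of the array and hence 0 of these 12, and with Benjamini-Hochberg adjustment it called 0 of the 12, with adjusted p-values of 0.0577 to 0.0996 for the 9 called by limma. At an unadjusted p under 0.05 and at least 2-fold it called the number that limma did, 9, beside 5099 of all 31959 tested probes called higher.

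**Figure D4:**
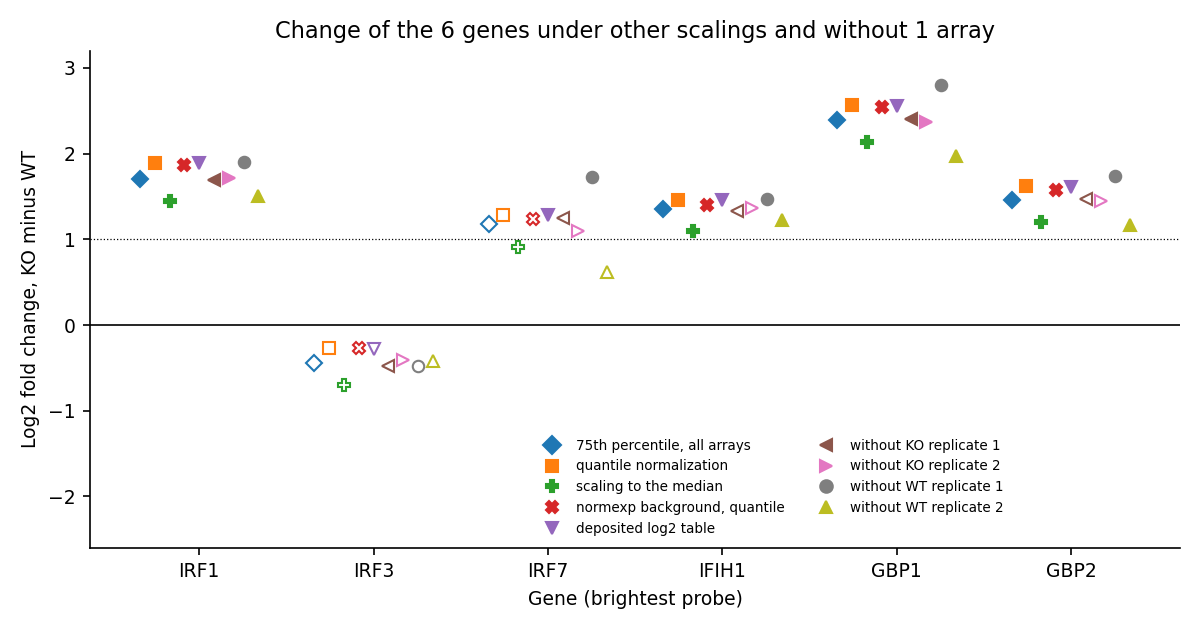
Log2 fold change of KO against WT (vertical axis) of the brightest probe of each gene (horizontal axis) under the scaling to the 75th percentile with all arrays, 4 other treatments of the signal and without each array in turn. Filled symbols were called and open ones were not, and the dotted line marks 2-fold. GBP1 stays above 1.9 throughout, IRF3 stays below 0, and IRF7 ranges from 0.61 without WT replicate 2 to 1.73 without WT replicate 1.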

How the data were processed

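Gene expression was measured in thymus on 4 one-colour porcine 4x44K arrays, 2 per genotype, grouped by the labels. The intensity values are the authors' deposited scanner output of Feature Extraction 11.0.1.1, per the file headers, background-subtracted and linear. A log2 table of the same arrays, also deposited by the authors, served as an alternative. The methods mention Cy5 as well, whereas the labels give Cy3 only.

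Control and outlier-marked spots were left out, spots of a probe were averaged, and log2 signals had the array's 75th percentile subtracted. The probes that stood well above background on the 2 arrays of 1 genotype or both, 31959 in all, were fitted with lmFit and eBayes (limma 3.58.1, R 4.3.3). Python 3.11.15 with pandas 2.3.3 made the tables and matplotlib 3.10.9 the plots. The steps were tested on simulated data. Genes were named through the RefSeq accession of the probe, each gene stood for by its brightest tested probe, and older symbols (TMEM173) were kept. The 7.61-fold value for IFNE sets the KO mean against a mean over the WT arrays. Each WT array gave its own signal or its dimmest signal well above background, whichever was higher.

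All probes of the 6 genes were to be named, with the 2 largest rises and falls of each list, every gene of the IRF, GTPase and sensor lists, the calls of the receptor list and the 2 most alike genes per member. STAT2, IFNGR1, IFNA1 and IFNAR2 were added after their values were seen. The 6 genes and all lists were chosen with earlier results of these data known. Some listed genes are not reported here and were left out of the list counts. Alternatives were quantile and median scaling, normexp on median signals with an offset of 50, the deposited table, 2 other filters, slide and replicate blocks, an intensity trend, the methods' t-test and leaving out each array. Spleen arrays and sequences were not used here.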

Additional observations from a re-analysis of the deposited data

How the results depend on the processing

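Of 192 values for the 12 probes under 16 alternatives, 164 kept their call, 24 lost it, 4 gained it and 0 changed sign. With 1 array left out, the lone array of that genotype is assumed to vary like the others. The 6 genes then had 2 to 5 calls and their 12 probes 6 to 10. The sensors had 2 to 6 calls, the GTPases 0 to 1, the antiviral genes 1 to 8, and all probes 4014 to 7566 higher and 2076 to 5147 lower, with the lowest counts without a KO array. The cause of these shifts, beyond the smaller number of arrays, was not tested.

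Scaling to the median called 1 member probe lower (IRF3), 6334 of all probes lower, 3 sensors higher and 2 sensors lower, and 47.8% of its calls were higher against 61.7% by the 75th percentile. Normexp called 3832 probes higher and 2595 lower, and 2 sensors higher. Without the filter on dim probes 0 of the GTPases and 4 antiviral genes were called higher. The methods' t-test with Bonferroni adjustment called 0 in every list and over all probes. With Benjamini-Hochberg adjustment it called 714 probes higher and 775 lower, 0 of the 6 genes, 0 of the other IRFs, GTPases, sensors and antiviral genes, 2 of the interferons, receptors, JAKs, STATs and SOCS genes and 1 IFN-gamma target. Unadjusted but with the 2-fold limit kept, it called 5099 probes higher, 0 of the GTPases and 1 antiviral gene.

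The labels do not say whether a replicate number marks a shared litter, batch or day. Deviations from the genotype mean correlated at r = -0.29 between samples of 1 number. With 2 arrays per genotype, the r of 0.29 between samples of 1 slide is the same value with its sign turned, not a second observation. With the replicate block 6627 probes were higher and 4031 lower. With the slide block, which is the crossed pairing, 6896 were higher and 4240 lower and 0 of the GTPases were called. Neither block changed a call of the 12 probes. The 2 arrays per genotype limit every statement here.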
